A study of Rattus norvegicus with 72 samples.

Results

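The genes of the cell cycle and of DNA replication were followed in primary rat hepatocytes over 2 times of culture and 8 compounds. The members were 48 genes, from the G1 cyclins to the proteins of cytokinesis, and every probe set whose platform gene symbol is 1 of these genes was taken. Of the 48 genes, 45 had a probe set that carried their symbol alone, which made 66 of the 31042 probe sets and 45 of the 14217 genes with such a symbol. Cdc6, Rrm2 and Tpx2 had none, since the 2 probe sets annotated to Rrm2 together with Rrm2l1 were not used. A probe set was tested where its mean reached the median of the table, a signal of 19.74, in at least 1 group of arrays, and 38 of the 45 measured genes had such a probe set. Aurka, Bub1b, Cdc25b, Kif20a, Melk, Plk1 and Ttk did not. Of the 38 genes, 13 reached the median in all 24 groups and 13 in only 1 to 6 groups. The latter were tested because they were bright in a few groups, so counts and medians over the 38 genes, also by role, are given as a description only. The same holds for the p of such a gene where 1 of its bright groups is compared. The mitotic genes are the ones this touches most: Mki67 reached the median in 1 group, Ccna2 in 2 and Cdk1 in 6.

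Hepatocytes were isolated by collagenase perfusion of rat liver, used at a viability of at least 85%, and kept as a monolayer in medium with 10% serum for 4 h and then without serum but with hydrocortisone and insulin. Exposure began 18 to 20 h after plating and lasted 24 h or 72 h, with 3 arrays in each of 24 groups (72 arrays). Aflatoxin B1 (19 nM), 4-(methylnitrosamino)-1-(3-pyridyl)-1-butanone (NNK, a tobacco nitrosamine, 625 µM) and 2-nitrofluorene (78 µM) stood for genotoxic carcinogens, which damage DNA. Wy-14643 (250 µM), piperonyl butoxide (13.4 µM) and methapyrilene (8.5 µM) stood for non-genotoxic carcinogens, and nifedipine (156 µM) and clonidine (277 µM) for compounds that are not carcinogens. Each compound was used at 1 dose. Aflatoxin B1, Wy-14643 and clonidine shared their control arrays (here the aflatoxin B1 control set), as did 2-nitrofluorene, piperonyl butoxide and nifedipine (the nifedipine control set), while NNK and methapyrilene each had controls of their own. The labels name neither what the control cultures received in place of a compound nor the strain, sex and age of the rats. All the cells were cultured hepatocytes of the same protocol, so cells fresh from the liver are not among the groups.

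In an intact adult liver nearly all hepatocytes rest outside the cell cycle, and they can re-enter it after injury or in culture with growth signals. D-type cyclins with CDK4 release E2F transcription factors from the retinoblastoma protein, cyclin E with CDK2 then starts replication at origins loaded with the MCM helicase, and cyclins A2 and B with CDK1 drive mitosis until the anaphase-promoting complex destroys them. Genes of the last steps are switched on in G2 and mitosis, largely through the CCAAT box and the cell cycle homology region (CHR) of their promoters, whereas many replication genes carry E2F sites.

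All values are array signals in the arbitrary units of the deposited table, and all differences are on the log2 scale with their standard error (SE) after signals below 3.12 were raised to that floor. Signals of different probe sets are not set against each other. A gene was called changed where the p from limma, adjusted by Benjamini-Hochberg over all 18048 probe sets tested, was under 0.05. Counts at an unadjusted p under 0.05 are for members only, without a share over all genes, and are a description only. The sample names carry a D number that arrays of different compounds and times share and whose meaning the labels do not state. A score of culture time was built from 3909 probe sets of other genes that differed between the times in the methapyrilene, NNK and nifedipine controls. In 32 pairs of arrays with the same number the 72 h array lay above the 24 h array by 0.356 to 1.39. The pairs of those controls are among the 32, and their direction was largely set by the choice of probe sets. In the 4 pairs of D number 3, in the control, Wy-14643, clonidine and aflatoxin B1 arrays, the 72 h array lay below by 0.35 to 0.661. These 8 arrays thus ran against their time labels, and they were also 8 of the 10 arrays with a high 3' to 5' ratio of actin probes (log2 1.84 to 2.71, against 0.355 to 1.11 in the others). The rest of the 10 were aflatoxin B1 arrays, the first at 24 h (1.99) and the second at 72 h (2.01). Outside D number 3, a high ratio was thus found only with aflatoxin B1, and its part in the aflatoxin B1 values cannot be told apart. The main calls and counts that rest on D number 3 are given with and without it. Other values, such as the differences between effects at the 2 times and the marker values with aflatoxin B1, are given only with it. The highest correlation between any 2 arrays was 0.983. Of the hepatocyte markers, 11 of 12 were on the array, all tested and none at the floor on every array of the series. Their summed signal was 26100 to 53400 in controls at 24 h and 23600 to 43700 at 72 h. Lymphocyte markers were dim (summed signal 16.6 to 47.3 in controls over the 8 genes on the array, none bright enough to be tested).

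Between 24 h and 72 h of culture, many tested genes of mitosis and cytokinesis rose in control hepatocytes, with Cdk1 and Ccnb1 among them. As the mean of the 4 control sets, 20 of the 38 genes rose and 0 fell, where 10.7% of all 10178 genes rose and 7.99% fell. The fit took the arrays of the 4 sets as independent. The nifedipine and NNK sets carry the same D numbers, and the labels do not state whether they share cells. The SE and p over the 4 sets make no allowance for that. The median change of the 38 genes was 0.54, against 0.01 over all genes, and 35 of the 38 were higher at 72 h. The mitotic cyclins and their partners moved by a median of 1.61 (5 of 6 rose) and the genes of mitotic exit by 1.45 (2 of 2). Spindle and cytokinesis genes moved by 1.02 (7 of 9), origin licensing and fork genes by 0.34 (3 of 9), G1 regulators by 0.20 (3 of 9) and genes of deoxynucleotide supply by 0.18 (0 of 3). At an unadjusted p under 0.05 the count was 26. Without the arrays of D number 3, 22 genes rose and 1, Cks2, fell (15.1% of all genes rose and 14.4% fell), with a median of 0.55. Of the 20 calls, only that of Mcm3 was then lost. With the D number as a replicate block 24 genes rose (14.3% of all genes), Ccnd2, Mcm2, Mcm7 and Tyms in addition. The median of the members was 0.19 over the 20 genes left by a filter on the mean of all arrays, and 0.30 on the scale of log2(value + 16).

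Cdk1, the kinase that drives entry into mitosis, had control signals at 24 h of 6.21, 0.274 and 9.42 in the aflatoxin B1 set, 12.8, 1.66 and 0.473 in the nifedipine set, 8.39, 2.83 and 5.42 in the NNK set, and 1.87, 8.26 and 3.58 in the methapyrilene set. At 72 h these were 13.6, 0.494 and 0.676, then 32.6, 42.8 and 30.7, then 22.7, 37.6 and 24.1, and 41.8, 85.0 and 1.11. The times did not overlap in the nifedipine and NNK sets, whereas 2 of 3 arrays at 72 h in the aflatoxin B1 set and 1 in the methapyrilene set were below the floor. Cdk1 rose by 1.84 ± 0.39 over the 4 sets (limma, adjusted p = 0.000799).

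Ccnb1 is cyclin B1, the partner that Cdk1 needs for mitosis. Its signals at 24 h were 5.67, 9.29 and 10.9 in the aflatoxin B1 set, 10.2, 9.82 and 5.01 in the nifedipine set, 7.25, 9.37 and 7.30 in the NNK set, and 5.21, 17.1 and 1.45 in the methapyrilene set. At 72 h they were 24.3, 9.99 and 7.31, then 27.1, 45.5 and 33.3, then 17.1, 38.7 and 30, and 30.6, 81.8 and 12.5. Again the nifedipine and NNK sets, which share their D numbers, separated completely by time. At 72 h 2 arrays of the aflatoxin B1 set and 1 of the methapyrilene set stayed within the range of the 24 h values. Ccnb1 rose by 1.68 ± 0.27 (adjusted p = 3.1e-05), and its second probe set also rose. Ccnb2, cyclin B2, rose by 1.33 ± 0.22 (adjusted p = 4.46e-05) and Ccna2, cyclin A2, which acts from S phase into mitosis, by 1.55 ± 0.35 (adjusted p = 0.00156). Cdkn3, a phosphatase that takes the activating phosphate off CDKs, rose by 1.77 ± 0.37 (adjusted p = 0.000665). Cks2, a small subunit that binds CDKs, was the exception among the genes of mitotic entry, with a difference of -0.50 ± 0.22 that did not pass (adjusted p = 0.114).

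**Figure D1:**
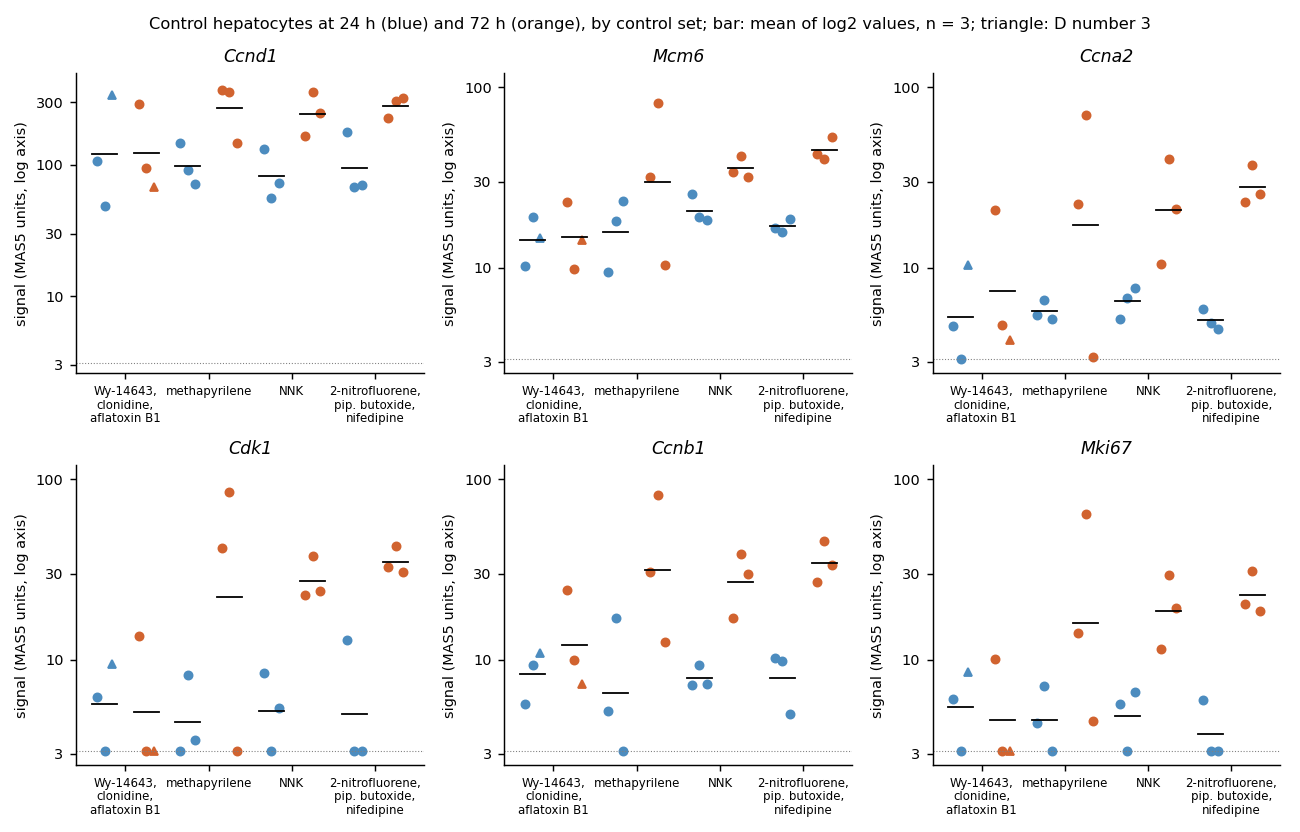
Signals of Ccnd1, Mcm6, Ccna2, Cdk1, Ccnb1 and Mki67 (MAS5 units, log axis, raised to the floor of 3.12, which is dotted) in control hepatocytes at 24 h (blue) and 72 h (orange) in each of the 4 control sets on the horizontal axis; points are arrays, bars the mean of the log2 values (n = 3), triangles D number 3. The 72 h points of Cdk1 lie above all 24 h points in the NNK and nifedipine sets and spread from the floor upwards in the other sets.

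Among the genes of spindle, chromosomes and cytokinesis, Prc1, which bundles the microtubules of the central spindle, rose by 1.68 ± 0.38 (adjusted p = 0.00138). Mki67, the antigen by which dividing cells are commonly stained, rose by 1.51 ± 0.32 (adjusted p = 0.000649), with nifedipine set signals of 5.97, 2.66 and 0.683 at 24 h and 20.4, 30.9 and 18.7 at 72 h. Its times did not overlap there. Mki67 was tested only because it reached the median in those 72 h controls, so its p is a description only. Without the filter it was still called. Racgap1 (a cytokinesis regulator, 1.32 ± 0.37) and Top2a (topoisomerase II alpha, which untangles chromosomes, 1.26 ± 0.33) rose as well. So did Aurkb (the chromosomal passenger kinase, 1.02 ± 0.33), Nusap1 (a spindle protein, 0.69 ± 0.21) and Bub1 (a kinase of the spindle checkpoint, 0.66 ± 0.21). Birc5, or survivin, a partner of Aurkb, differed by 0.11 ± 0.31 and Kif11, the motor that separates spindle poles, by -0.06 ± 0.13. Neither passed. Racgap1 and Bub1 reached the median in 1 group each and Aurkb in 2. Without the filter Aurkb and Bub1 were still called. The second Racgap1 probe set, which was too dim to be tested, has the higher mean, so that without the filter Racgap1 is not among the calls.

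Both genes of mitotic exit rose. Cdc20, which activates the anaphase-promoting complex, had nifedipine set signals of 18.2, 3.87 and 6.59 at 24 h and 24.8, 29.5 and 33.1 at 72 h, and methapyrilene set signals of 8.05, 1.71 and 8.40 and then 35.3, 64.0 and 14.0. The times did not overlap in either set. Over the 4 sets Cdc20 rose by 1.38 ± 0.27 (adjusted p = 0.000291). Ube2c, the ubiquitin-conjugating enzyme of that complex, rose by 1.51 ± 0.38 (adjusted p = 0.00442).

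Promoter sequences are shown for Cdk1, Ccnb1 and Cdc20, as genes of mitosis that rose together in culture. They are the 250 bases before the start of the RefSeq gene on build GRCr8, read in the direction of transcription, with capitals marking the CHR (TTTGAA), the CCAAT box (CCAAT) and 4 forms of the E2F site (TTCCCGC or TTGGCGC, also TTGCCGC or TTCGCGC), each on either strand. The Cdk1 stretch lies on the plus strand at chr20:19265043-19265292, that of Ccnb1 on the minus strand at chr2:33655226-33655475 and that of Cdc20 on the minus strand at chr5:137255800-137256049.
Cdk1: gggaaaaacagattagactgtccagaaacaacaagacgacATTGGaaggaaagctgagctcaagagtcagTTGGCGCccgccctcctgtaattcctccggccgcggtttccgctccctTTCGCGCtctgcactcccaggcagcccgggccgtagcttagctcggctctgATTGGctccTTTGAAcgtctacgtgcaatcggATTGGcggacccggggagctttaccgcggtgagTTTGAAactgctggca
Ccnb1: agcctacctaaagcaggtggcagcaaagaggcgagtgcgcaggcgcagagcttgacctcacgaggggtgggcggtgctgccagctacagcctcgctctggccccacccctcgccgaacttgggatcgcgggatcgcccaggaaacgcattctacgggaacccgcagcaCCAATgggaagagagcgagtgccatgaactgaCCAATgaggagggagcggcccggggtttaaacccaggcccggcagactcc
Cdc20: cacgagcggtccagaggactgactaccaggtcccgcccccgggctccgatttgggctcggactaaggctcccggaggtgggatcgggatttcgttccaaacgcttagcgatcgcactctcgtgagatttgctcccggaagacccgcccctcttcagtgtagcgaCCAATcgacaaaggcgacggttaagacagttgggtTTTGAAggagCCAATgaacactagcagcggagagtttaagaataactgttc
The Cdk1 stretch holds 2 CHR, 3 CCAAT and 2 E2F matches, the Ccnb1 stretch 2 CCAAT matches, and the Cdc20 stretch 1 CHR and 2 CCAAT matches. Over windows of 300 bases (250 before and 50 after the start), 36 of the 48 members had a promoter in the RefSeq table. A CHR was present in 14 of these (38.9%, against 18.3% of all 33469 promoters), a CCAAT box in 26 (72.2%, against 37.5%) and an E2F form in 13 (36.1%, against 9.52%). A match describes these letters and is not a measured binding site.

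Among the genes of G1, Ccnd1, cyclin D1, which carries growth signals into the cell cycle, rose by 1.16 ± 0.31 (adjusted p = 0.00594), which all 3 of its probe sets showed. Its control signals at 24 h were 108, 48.5 and 340 in the aflatoxin B1 set, 179, 67.4 and 69.8 in the nifedipine set, 133, 56.4 and 73.5 in the NNK set, and 146, 90.8 and 71.4 in the methapyrilene set. At 72 h they were 294, 94.8 and 67.7, then 227, 309 and 325, then 167, 357 and 248, and 371, 362 and 147. All arrays at 72 h lay above all at 24 h in 3 of the 4 sets. In the aflatoxin B1 set the D number 3 arrays held both the highest value at 24 h and the lowest at 72 h. E2f1, the transcription factor of S phase genes, rose by 0.59 ± 0.16 (adjusted p = 0.00767) and Ccne2, cyclin E2, by 0.51 ± 0.18 (adjusted p = 0.0366). The Ccne2 call was lost in 3 of 11 alternatives and in 10 of 24 fits without 1 control array. Cyclin D2 (Ccnd2, 0.56 ± 0.22), cyclin E1 (Ccne1, 0.14 ± 0.17), cyclin D3 (Ccnd3, 0.06 ± 0.11), the kinases Cdk4 (0.20 ± 0.09) and Cdk2 (0.12 ± 0.22) and the inhibitor of Cdk4, Cdkn2c (0.12 ± 0.12), did not pass, although Ccnd2 was called with the replicate block and without D number 3.

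Of the 6 subunits of the MCM helicase, which is loaded at origins and unwinds DNA, 3 rose, and 5 with the replicate block, which also called Mcm2 and Mcm7. Mcm6 rose by 0.79 ± 0.25 (adjusted p = 0.0225), Mcm4 by 0.57 ± 0.18 (adjusted p = 0.0206) and Mcm3 by 0.51 ± 0.18 (adjusted p = 0.039). The Mcm3 call was fragile. It was lost in 5 of 11 alternatives, among them the fit without D number 3, and in 13 of 24 fits without 1 control array. In the nifedipine set Mcm6 went from 16.7, 15.7 and 18.7 to 42.7, 40.2 and 53.3, without overlap. The changes of Mcm2 (0.36 ± 0.14), Mcm7 (0.29 ± 0.11) and Mcm5 (0.20 ± 0.20) did not pass, nor did those of Pcna, the sliding clamp of the polymerases (0.16 ± 0.11), Cdc45, the helicase cofactor (0.10 ± 0.11), and geminin, Gmnn, which blocks relicensing (0.34 ± 0.41). Of the deoxynucleotide genes, thymidylate synthase, Tyms, differed by 0.35 ± 0.13, the large subunit of ribonucleotide reductase, Rrm1, by 0.18 ± 0.10 and thymidine kinase, Tk1, by -0.14 ± 0.15, and none passed. Tyms was called with the replicate block and without D number 3.

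The rise differed in size from one control set to another. In the nifedipine set 6 of 38 genes rose and 0 fell (1.53% and 1.72% of all genes), namely Cdk1 by 2.81, Mki67 by 2.56, Ccna2 by 2.46, Ccnb1 by 2.12, Cdc20 by 1.90 and Ccnb2 by 1.51, and 24 genes had all 72 h arrays above all 24 h arrays (18.6% of all genes). The methapyrilene set had 4 rises (0.373%), of Cdc20 by 2.41, Ccnb1 by 2.27, Ccnb2 by 1.77 and E2f1 by 1.24, and 7 genes without overlap (12.4% of all genes). The NNK set had 2 (1.69%), of Ccnb2 by 1.58 and Nusap1 by 1.45, and 17 genes without overlap (17.1%). Each of these 3 per-set counts fell to 0 in at least 1 fit that left out 1 array. In the aflatoxin B1 set limma called 0 genes (0% of all genes up or down), with 1 at an unadjusted p under 0.05, and the median over the 38 genes was 0.08, against 0.85, 0.70 and 0.64 in the other sets. The genes of smallest p there were Cdkn2c (0.48), E2f1 (0.55) and Ccnd2 (0.71), and no gene had times that did not overlap with 72 h higher (0 of 38, where 1.77% of all genes did). The aflatoxin B1 set still had 0 calls without D number 3, and its median was 0.29. The difference between the control sets was not tested.

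The control arrays were also set side by side by D number, although the numbers did not pair the times in the nifedipine and NNK sets, where the deviations of same-numbered arrays correlated at -0.134 to -0.0206 (0.353 to 0.565 in the other sets). The median over the 38 genes of 72 h minus 24 h was 0.42, 1.16 and 0.94 in the nifedipine set, 0.33, 0.92 and 0.75 in the NNK set, 0.81, 1.40 and -0.09 in the methapyrilene set, and 0.44, 0.00 and -0.25 in the aflatoxin B1 set, the last value from D number 3. In the methapyrilene pair with 1.40 all 38 of 38 genes were higher at 72 h. The count over the 4 sets depended on these arrays: without the 72 h array of that pair 13 genes rose, and without the 72 h array of the pair at -0.09 the count was 24.

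**Figure D2:**
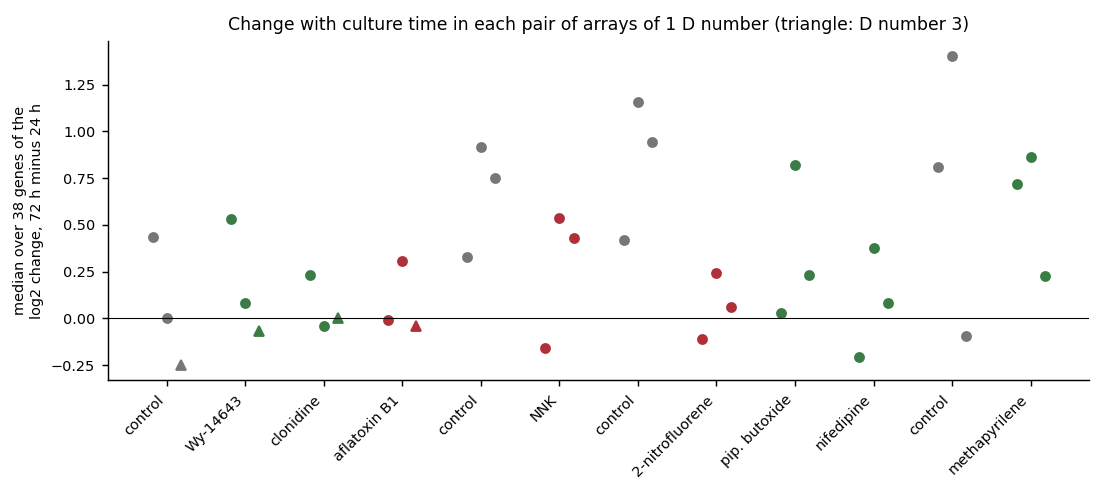
Median over the 38 genes of the log2 change from 24 h to 72 h (vertical axis) in each pair of arrays with the same D number, by control or compound on the horizontal axis; grey points are control pairs, red genotoxic carcinogens, green other compounds, triangles D number 3. The 3 pairs of the nifedipine controls lie at 0.42 to 1.16 and those of nifedipine itself at -0.21 to 0.38.

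The 7 members too dim to be tested were listed without the filter, over 45 genes. There 22 genes rose (7.23% of 14217 genes). Bub1b, a spindle checkpoint protein, rose by 1.17 ± 0.22 (adjusted p = 0.000268), Melk, a mitotic kinase, by 1.27 ± 0.25, Plk1, polo-like kinase 1, by 1.13 ± 0.28, Ttk, the checkpoint kinase Mps1, by 1.03 ± 0.19, and Kif20a, a cytokinesis motor, by 0.93 ± 0.27. Aurka, the centrosome kinase, differed by 0.26 ± 0.21 and Cdc25b, the phosphatase that activates CDKs, by 0.36 ± 0.21, and these did not pass. A filter on the mean of all arrays instead left 20 genes, of which 5 rose (10.1% of all genes), namely Ccnd1, Ccne2, Mcm3, Mcm4 and Mcm6, because the mitotic genes were dim on most arrays and fell out of the test. Of the 20 genes called over the 4 sets, 16 kept the call in every alternative in which their probe set was tested, and 13 of them also in each of 24 fits that left out 1 control array.

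Other genes of the cell cycle, taken from lists outside the 48, were read in the same way. Of 35 other mitosis genes, 28 were on the array and 19 were tested, and 9 rose with culture time. They were led by Pttg1, or securin (2.10 ± 0.35, adjusted p = 3.68e-05), Kif23, a cytokinesis motor (1.52 ± 0.35), and Cdca3, a factor of mitotic entry (1.49 ± 0.35). Of 20 other replication genes tested, 3 rose and 1 fell, beside 10.7% and 7.99% of all genes: Prim1, a primase subunit (0.57 ± 0.16), Orc6, of the origin recognition complex (0.57 ± 0.13), and Rpa1 (0.37 ± 0.08) against Rpa3 (-0.59 ± 0.12), both of the single-strand binding protein RPA. Among 8 CDK inhibitors and pocket proteins tested, Rbl2, the pocket protein p130 of resting cells, fell by 0.38 ± 0.09, and Cdkn1a was not called. The checkpoint kinase Chek1 rose by 0.49 ± 0.14. All these calls of other genes were kept without D number 3.

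Markers of other cell types moved over the same time, when 10.7% of all genes rose and 7.99% fell. Bile duct markers rose in 3 of 3 tested genes (Krt7 by 3.16, Cldn4 by 1.43 and Epcam by 0.93), and the summed signal of the 7 on the array went from 334 to 364 up to 832 to 1040 in the nifedipine set, and from 309 to 557 up to 377 to 643 in the aflatoxin B1 set. None of the 7 was at the floor on every array. Of 10 stellate cell and fibroblast markers tested 2 rose and 2 fell. The summed signal of the 12 on the array went from 1980 to 2680 up to 3750 to 5090 in the NNK set, from 1510 to 2460 up to 2430 to 5570 in the methapyrilene set, from 1630 to 2660 up to 2110 to 3240 in the nifedipine set and from 1450 to 3470 up to 2080 to 4570 in the aflatoxin B1 set, without overlap in the NNK set alone. Of 13 macrophage markers 2 fell, and of 7 endothelial markers 4 fell. Of 11 hepatocyte markers 6 fell, Cyp2e1 by 2.84, while Alb changed by 0.01. The marker calls over culture time were all kept without D number 3. Their part in the rise of the mitotic genes was not tested, and in RNA of whole cultures fewer cells of a type and less RNA per cell cannot be told apart.

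After exposure, Tyms was the member that responded to compounds most plainly. Tyms, which makes the thymidine nucleotide needed for DNA synthesis and repair, rose with aflatoxin B1 and with NNK at both times. Its signals at 24 h were 36.9, 29.5 and 28.7 in the aflatoxin B1 controls and 116, 116 and 117 with aflatoxin B1. At 72 h they were 39.4, 25.2 and 23.0 and then 156, 174 and 82.9. Exposed and control arrays did not overlap at either time, and the change was 1.89 ± 0.26 at 24 h (limma, adjusted p = 1.8e-06) and 2.21 ± 0.26 at 72 h (adjusted p = 3.45e-08). It was 1.81 and 2.39 without D number 3, still called. In a fit of the compared arrays alone neither was called (adjusted p = 0.094 and 0.154). In these fits 0% of all genes rose at 24 h and 0.0295% at 72 h.

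With NNK the Tyms signals at 24 h were 63.9, 94.2 and 108, against 36.2, 36.6 and 46.4 in its own controls. At 72 h they were 131, 147 and 95.8, against 54.6, 70.5 and 53.2. The arrays again did not overlap, and Tyms rose by 1.14 ± 0.26 (adjusted p = 0.0162) and 1.06 ± 0.26 (adjusted p = 0.0134). Each of these calls was lost in 4 of the 6 fits that left out 1 of the arrays compared, and that at 24 h also in a fit of the compared arrays alone (adjusted p = 0.124). With 2-nitrofluorene, the third genotoxic carcinogen, the Tyms signals were 37.1, 58.1 and 46.4 against 39.3, 34.4 and 36.4 at 24 h, and 47.5, 66.2 and 34.1 against 62.9, 68.7 and 38.3 at 72 h. These overlapped, with differences of 0.34 and -0.21 that were not called. Set as classes, the mean effect of the 3 genotoxic carcinogens on Tyms exceeded that of the 3 non-genotoxic ones by 1.08 ± 0.18 at 24 h (adjusted p = 7.83e-05) and by 0.77 ± 0.18 at 72 h (adjusted p = 0.00667, and 0.0613 in a fit of the groups compared alone). These SE and p measure the spread between arrays and not that between the compounds of a class, and 2-nitrofluorene by itself gave no call. Both class differences of Tyms were also called without D number 3. Tyms was the only 1 of the 38 genes called in either class comparison (0.688% of all genes were higher at 24 h and 1.84% at 72 h).

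The promoter of Tyms is shown beside those of the mitotic genes because Tyms was the member called with both aflatoxin B1 and NNK. Its 250 bases lie on the minus strand at chr9:120776084-120776333 of GRCr8, with the same marking.
Tyms: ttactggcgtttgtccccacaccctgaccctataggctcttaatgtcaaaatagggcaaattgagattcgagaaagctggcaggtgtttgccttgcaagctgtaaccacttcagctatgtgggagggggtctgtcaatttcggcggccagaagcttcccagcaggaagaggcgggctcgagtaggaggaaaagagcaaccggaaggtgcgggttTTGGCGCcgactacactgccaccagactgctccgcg
It holds 1 E2F match and no CHR or CCAAT match, where 9.52% of all promoters hold an E2F form in the longer window.

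Cdkn3 was the other member that rose with aflatoxin B1. Its signals were 0.487, 1.84 and 19.3 in the controls and 35.1, 15.5 and 56.3 with aflatoxin B1 at 24 h, and 13.2, 4.96 and 6.60 against 41.6, 156 and 38.1 at 72 h. The groups overlapped at 24 h, where D number 3 gave the high control value, and did not at 72 h. The signal of 156 at 72 h came from an array of high actin ratio. Cdkn3 differed by 2.45 ± 0.74 at 24 h (adjusted p = 0.0514) and rose by 3.05 ± 0.74 at 72 h (adjusted p = 0.00631). Both were called without D number 3, the 72 h rise then being 3.31. Since 2 of the 3 control arrays at 24 h were below the floor, the size at 24 h depends on the floor. The call at 72 h was lost without the second array of the controls or the second array of aflatoxin B1, with a floor at the 10th percentile, without the arrays of high actin ratio, and in a fit of the compared arrays alone (adjusted p = 0.282). With NNK the signals were 13.3, 18.8 and 23.6 against 4.38, 9.03 and 1.43 at 24 h, and 55.0, 47.2 and 44 against 8.05, 30 and 21.7 at 72 h. None of these overlapped, but the differences of 1.86 and 1.48 were not called.

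**Figure D3:**
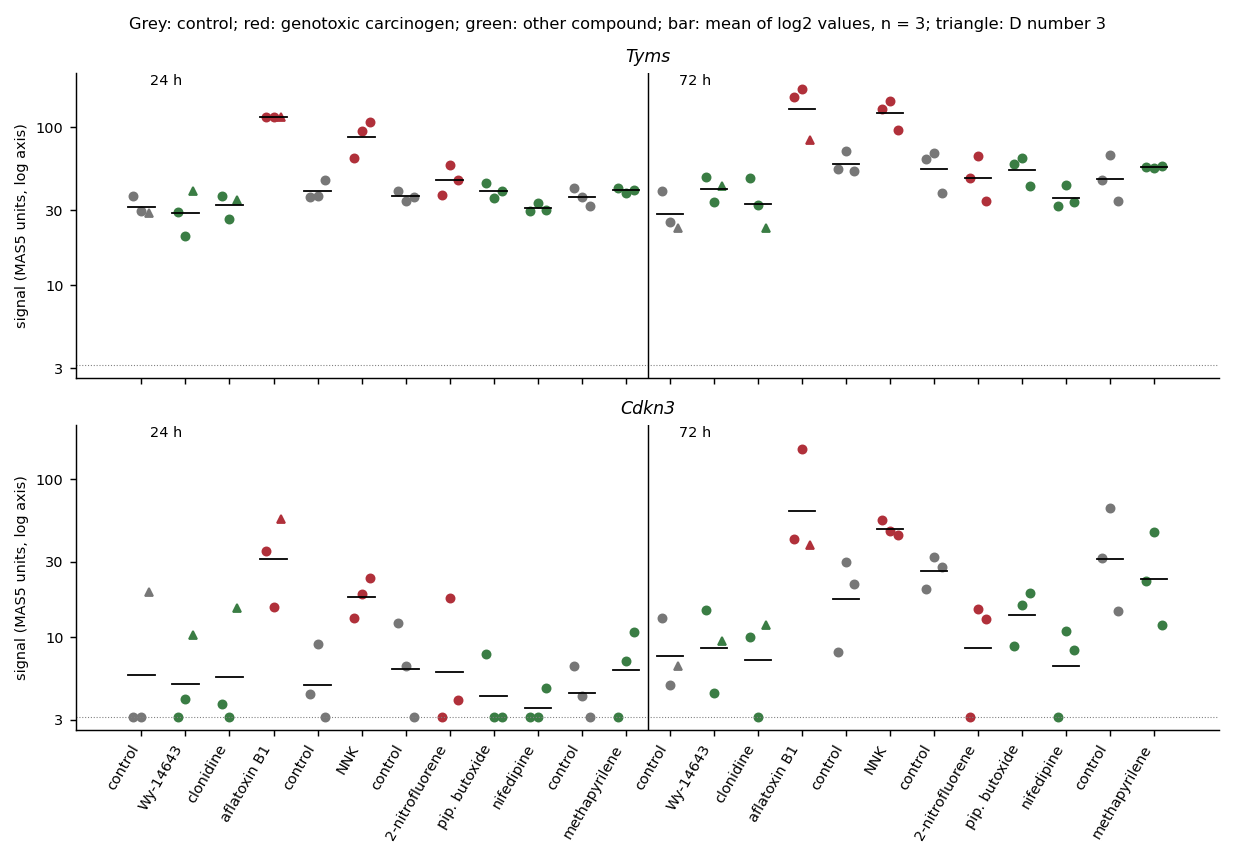
Signals of Tyms (top) and Cdkn3 (bottom) in MAS5 units on a log axis, raised to the floor of 3.12 (dotted), in the 24 groups on the horizontal axis, with 24 h on the left and 72 h on the right; points are arrays, bars the mean of the log2 values (n = 3), triangles D number 3, and each control stands before the compounds it belongs to. The 3 aflatoxin B1 arrays at 24 h show Tyms at 116 to 117, above every control array of that time.

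Apart from Tyms and Cdkn3, no member was called with aflatoxin B1 or NNK in the main fit. With aflatoxin B1, 1 of 38 genes rose at 24 h (2.34% of all genes) and 2 at 72 h (3.43%), none fell (1.65% and 2.59%), and the medians over the 38 genes were 0.03 and 0.08. Mki67 differed by -0.27 and -0.41 and Cdk1 by -0.48 and 0.17. Without D number 3 the counts were 2 at 24 h (Tyms and Cdkn3) and 3 at 72 h (Tyms, Cdkn3 and Ccne2, where 7.28% of all genes rose), and the median at 72 h was -0.11. With NNK, 1 gene rose at each time (0.481% and 2.22% of all genes), none fell, and the medians were 0.15 and -0.12. At 24 h, 10 of the 38 genes had all NNK arrays above all controls (12% of all genes). Macrophage markers were higher with aflatoxin B1 in 12 of 13 tested genes at 72 h (median 1.02, 0 called), with summed signals of 2100 to 3420 against 1300 to 2210, and their part in these values was not tested.

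Outside the 48 genes, Cdkn1a, the p21 inhibitor of CDKs, rose with aflatoxin B1 by 1.45 and 1.36 and with NNK by 1.01 and 1.82 at 24 h and 72 h. Ccng1, cyclin G1, rose by 1.40 and 1.59 and by 1.27 and 1.24. With aflatoxin B1 Cdk7 also rose, by 0.83 and 0.81, and Rb1, the retinoblastoma protein, rose at 72 h by 1.48. Of the E2F and mitotic transcription factors, Mybl2, or B-Myb, which with the MuvB proteins switches on mitotic genes, rose with NNK by 2.03 and 1.69 and with aflatoxin B1 at 72 h by 2.43. Myc, of the same list, fell with aflatoxin B1 at 72 h by 1.43. Of the replication genes, Pola1, the catalytic subunit of DNA polymerase alpha, fell with aflatoxin B1 at 24 h by 2.10 and with NNK by 1.86 and 1.63. Dut, the dUTPase that feeds the Tyms reaction, rose with aflatoxin B1 by 0.91 and 0.96. Rfc4, of the clamp loader, and Rpa1 also rose with aflatoxin B1, by 0.88 and 0.65 at 24 h and 0.85 and 0.54 at 72 h. Without D number 3 the calls of Rfc4 at 24 h (0.82) and of Rpa1 at 72 h (0.48) were lost, and the other aflatoxin B1 calls named here kept their direction and call.

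Nifedipine cultures had lower signals than their controls in many mitotic genes at 72 h. After 72 h, 33 of the 38 genes were lower with nifedipine than in its controls, with a median of -0.96 against -0.05 over all genes. Mki67 was tested only because it reached the median in these 72 h controls, and Ccna2 only through them and the 72 h NNK controls. Over the 20 genes left by a filter on the mean of all arrays the median was -0.42, with 0 called, and on the scale of log2(value + 16) it was -0.49. Ccna2 and Cdk1 fell, the only 2 of 38 genes called (1.9% of all genes fell and 1.79% rose), and 25 genes had all nifedipine arrays below all controls (20.4% of all genes). At an unadjusted p under 0.05 the count was 20. At 24 h 0 genes were called (0.265% of all genes rose and 0.285% fell) and the median was -0.09.

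Ccna2 had signals of 23.2, 37.1 and 25.7 in the 72 h controls and 2.62, 6.09 and 4.76 with nifedipine, and at 24 h its controls were at 5.90, 4.94 and 4.58. The nifedipine arrays at 72 h lay in the range of the 24 h controls or below it except for 1 at 6.09. Ccna2 fell by 2.65 ± 0.70 (limma, adjusted p = 0.0228). Cdk1 was at 32.6, 42.8 and 30.7 in the controls and at 4.35, 4.97 and 7.91 with nifedipine, and fell by 2.66 ± 0.78 (adjusted p = 0.0446). Neither gene overlapped between the groups. Both calls were fragile, since that of Ccna2 was lost in 5 and that of Cdk1 in 6 of the 6 fits that left out 1 of the arrays compared. The Cdk1 call was also lost with the floor at the 10th percentile, without the filter and with quantile normalization.

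The other mitotic genes were not called but lay on the same side. Mki67 was at 20.4, 30.9 and 18.7 in the controls and at 2.34, 8.79 and 5.59 with nifedipine (-2.09 ± 0.63, adjusted p = 0.0523). Ccnb1 was at 27.1, 45.5 and 33.3 and at 11.6, 12.4 and 14.0 (-1.45 ± 0.55). Neither overlapped. Top2a differed by -2.04 ± 0.67. By role the medians were -1.72 for the genes of mitotic entry, with all 6 of 6 below the controls without overlap, -1.44 for spindle and cytokinesis (7 of 9), -1.32 for mitotic exit, -0.46 for G1 regulators, -0.44 for deoxynucleotide supply and -0.21 for licensing and fork genes. Within the latter, Mcm6 was at 42.7, 40.2 and 53.3 and at 12.6, 29.3 and 23.8, without overlap, while Pcna was at 458, 461 and 445 and at 500, 536 and 513, all higher with nifedipine (0.18). Ccnd1 differed by -1.10 and Ccne1 by -0.85.

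The arrays of 1 D number in nifedipine and its controls deviated together, so the fit was repeated with the number as a block. With the replicate block, 9 genes fell at 72 h (4.57% of all genes): Ccna2, Ccnb2, Cdk1, Cks2, Mcm4, Mki67, Nusap1, Prc1 and Top2a. With the block kept within each time, an alternative chosen after seeing the data, 19 fell (10.1%), and in a fit of the 6 compared arrays alone 15 (6.13%). Without D number 3, whose arrays lie in another control set, the count was 6 (4.55% of all genes fell). Without the filter 4 of 45 genes fell (1.01% of all genes), namely Ccna2, Bub1b (-1.67 ± 0.43), Kif20a and Ttk. The difference between the effects at 72 h and 24 h was itself not called for any of the 38 genes (0 called, with 0.00983% of all genes lower, 8 at an unadjusted p under 0.05), with a median of -0.92. With the block within time it was called for 3 genes, Ccna2, Cdk1 and Mki67 (0.904% of all genes).

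**Figure D4:**
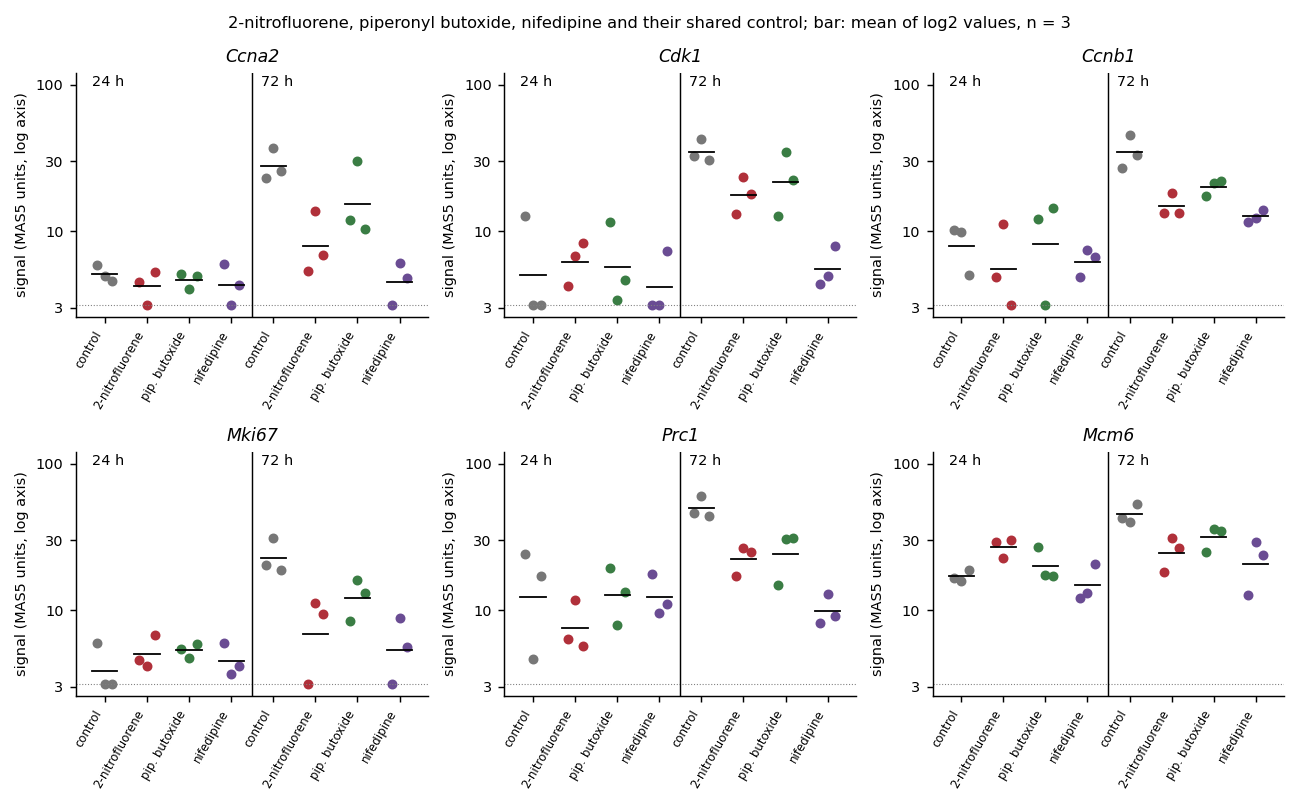
Signals of Ccna2, Cdk1, Ccnb1, Mki67, Prc1 and Mcm6 (MAS5 units, log axis, raised to the floor of 3.12, dotted) in the controls, 2-nitrofluorene, piperonyl butoxide and nifedipine on the horizontal axis at 24 h (left) and 72 h (right); points are arrays and bars the mean of the log2 values (n = 3). At 72 h the nifedipine arrays of Ccna2 and Cdk1 lie at 2.62 to 7.91, below all control arrays at 23.2 to 42.8.

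The 2 other compounds with the same controls lay on the same side at 72 h, and since all 3 share the control arrays their values are set side by side. With 2-nitrofluorene 33 of the 38 genes were lower (median -0.60), and 23 had all arrays below the controls (15.4% of all genes), but 0 were called (0.177% of all genes fell and 0.953% rose), with 9 at an unadjusted p under 0.05. With piperonyl butoxide 37 were lower (median -0.43), 13 without overlap (5.19% of all genes), and 0 were called (0% of all genes up or down), with 1 at an unadjusted p under 0.05. Ccna2 was at 5.37, 13.7 and 6.93 with 2-nitrofluorene and at 11.9, 30.2 and 10.3 with piperonyl butoxide. Mki67 was at 2.45, 11.2 and 9.37 and at 8.47, 16 and 13. The 2-nitrofluorene values were all below the controls, while 1 piperonyl butoxide array of Ccna2 reached into the control range. The genes of smallest p with 2-nitrofluorene were Mki67 (-1.72), Ccna2 (-1.82) and Ccne2 (-0.85), and with piperonyl butoxide Ccnb2 (-0.90), Gmnn (-1.28) and Racgap1 (-1.13). For mitotic entry, spindle and exit the medians were -1.11, -1.02 and -1.25 with 2-nitrofluorene and -0.82, -0.65 and -0.80 with piperonyl butoxide. With the block within time 4 genes fell with 2-nitrofluorene (2.78% of all genes), namely Ccna2, Cks2, Mki67 and Ube2c. The difference between times was not called for any member with either compound (0 called, 4 and 0 at an unadjusted p under 0.05).

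By D number, the change from 24 h to 72 h over the 38 genes had medians of -0.21, 0.38 and 0.08 with nifedipine, -0.11, 0.24 and 0.06 with 2-nitrofluorene and 0.03, 0.82 and 0.23 with piperonyl butoxide. In their controls it was 0.42, 1.16 and 0.94, in the same order of D numbers. The numbers did not pair the times in these controls, so the values of 1 number are not matched samples. Among the genes of other lists, Cdca3 (-2.42) and Kif23 (-2.36) fell with nifedipine at 72 h, as did Rpa1 (-0.71) and Rpa2 (-1.04). Markers moved in these cultures too. The 3 bile duct markers tested were all below the controls with nifedipine (median -1.78, 0 called), with summed signals of 594 to 758 against 832 to 1040, and with 653 to 831 for 2-nitrofluorene and 855 to 1030 for piperonyl butoxide. Macrophage markers were lower with nifedipine in 12 of 13 genes (2 fell, median -1.44) and with 2-nitrofluorene in 12 of 13 (median -1.02), with summed signals of 893 to 1740 and 910 to 1670 against 1370 to 2630. Stellate and fibroblast markers were higher in 4 of 10 genes with nifedipine (median -0.27) and in 3 of 10 with 2-nitrofluorene (median -0.36), none called, with summed signals of 2030 to 2350 and 996 to 1840 against 2110 to 3240 in the controls. The 2-nitrofluorene sums did not overlap those of the controls, and at 24 h they were 853 to 1310 against 1630 to 2660. Hepatocyte markers were not lower (8 of 11 higher with nifedipine, median 0.20). The part of these markers in the member values was not tested.

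The remaining comparisons called no member. With Wy-14643, an activator of PPAR alpha, limma called 0 of 38 genes at 24 h (0.0688% of all genes rose and 0% fell, 2 members at an unadjusted p under 0.05) and 0 at 72 h (3.52% rose and 5.29% fell, 4 members). The genes of smallest p were Cdk4 (0.48), Bub1 (-0.89) and E2f1 (0.62) at 24 h, and Tk1 (-0.79), Cdkn2c (-0.58) and Gmnn (1.75) at 72 h. The Wy-14643 counts were also 0 without D number 3. The only call with the replicate block was that of Tk1 at 72 h (8.47% of all genes fell). Outside the 48 genes the phosphatase Cdc25a rose with Wy-14643 at 72 h by 1.22 and Ccnf, cyclin F, fell by 1.52. Both calls were kept without D number 3.

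With clonidine 0 genes were called at 24 h (0.00983% rose and 0% fell, 4 members at an unadjusted p under 0.05) and 0 at 72 h (0.0491% rose and 0% fell, 0 members), with and without D number 3, and with methapyrilene 0 at both times (0% of all genes either way, 0 members at an unadjusted p under 0.05). At 24 h the genes of smallest p with clonidine were Nusap1 (-1.36), Pcna (0.54) and Cdk4 (0.46), and with methapyrilene Mcm3 (0.64), Racgap1 (0.95) and Cdc20 (0.67). At 72 h they were Rrm1 (0.32), Cdkn2c (-0.36) and Cdk4 (0.28), and Cdkn2c (-0.40), Mcm6 (0.57) and Mcm7 (-0.23). Methapyrilene cultures at 72 h had Cdk1 at 25.3, 54.6 and 12.9 beside controls at 41.8, 85.0 and 1.11, which overlapped. At 24 h, 2-nitrofluorene and piperonyl butoxide also had 0 calls (1.03% rose and 0.452% fell, and 0.118% rose and 0% fell, with 3 and 0 members at an unadjusted p under 0.05). The genes of smallest p were Ccnd3 (-0.49), Cdkn2c (-0.53) and Tk1 (0.62) with 2-nitrofluorene, and Mcm7 (0.34), Cdc20 (0.77) and Cdkn2c (-0.31) with piperonyl butoxide. A dimmer probe set of Tk1 did rise with 2-nitrofluorene at 24 h (2.50 ± 0.60, adjusted p = 0.0162), where the brightest of the 3 gave 0.62. Cdkn2c, the p18 inhibitor of Cdk4, had the smallest p with nifedipine at 24 h (-0.81, adjusted p = 0.114), followed by Pcna (0.40) and Ccnd3 (-0.26).

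The effects at 72 h and 24 h were compared for each compound, and limma called 0 of the 38 genes in each of the 8 comparisons, with 0 to 8 at an unadjusted p under 0.05 (at most 0.128% of all genes were called in 1 direction). The median SE over the 38 genes was 0.43 for a comparison with controls and 0.61 for a difference between times.

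**Figure D5:**
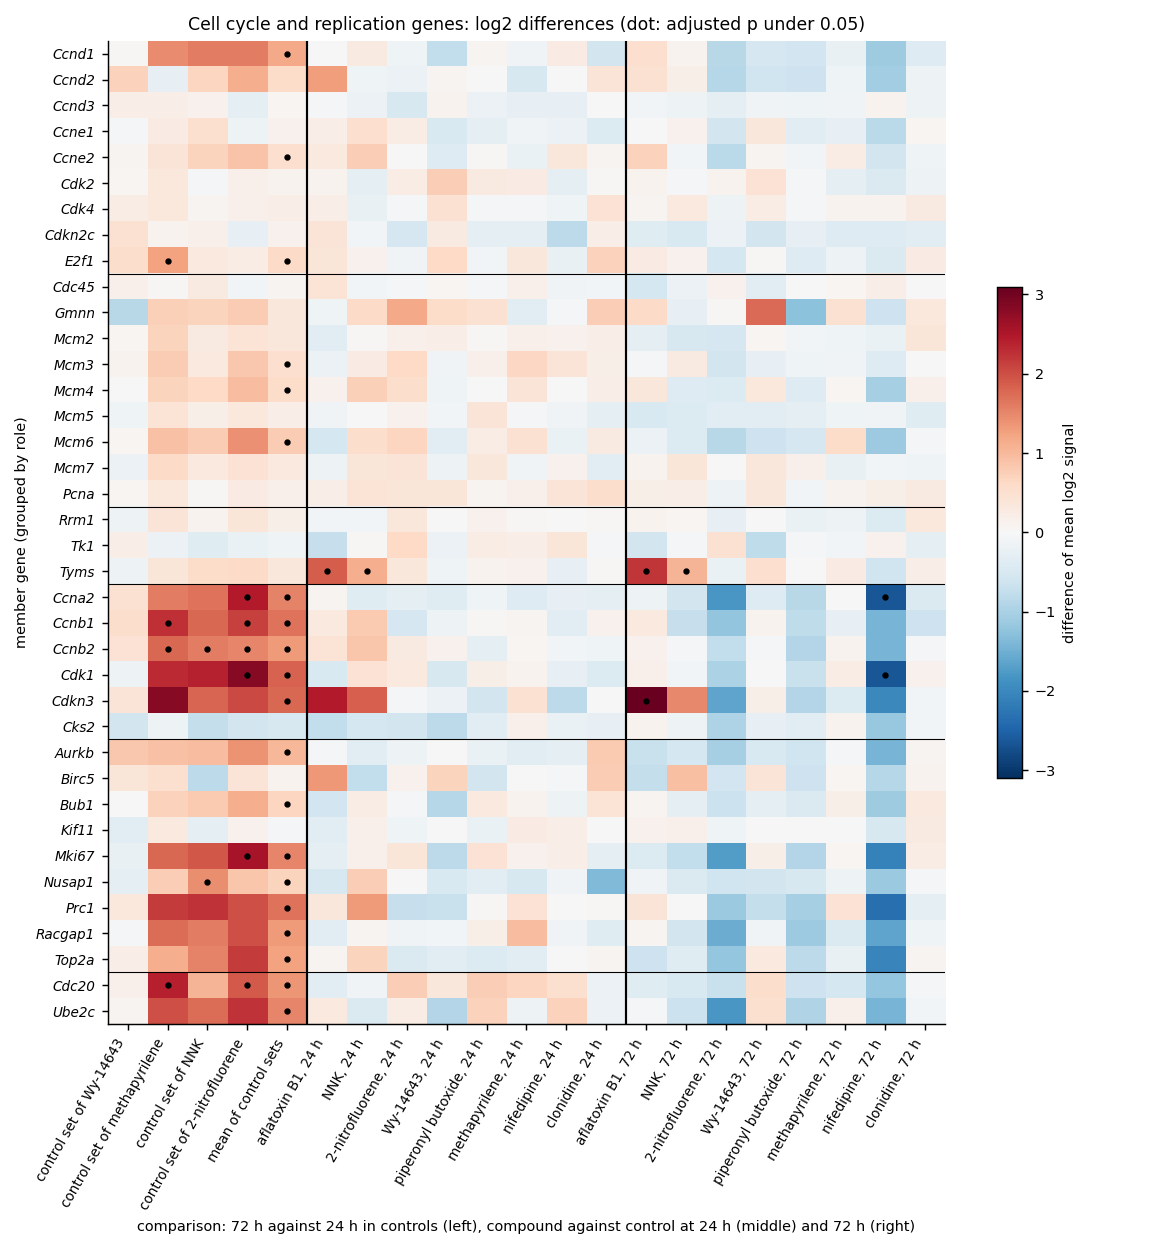
Log2 differences of the 38 tested genes (rows, grouped by role) for 72 h against 24 h in each control set and in their mean (left), and for each compound against its control at 24 h (middle) and 72 h (right); red is higher, blue lower, and a dot marks an adjusted p under 0.05. The mitotic genes are red in 3 of the 4 control sets, Tyms and Cdkn3 in the aflatoxin B1 and NNK columns, and the mitotic genes blue with nifedipine, 2-nitrofluorene and piperonyl butoxide at 72 h.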

How the data were processed

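Biotin-labelled total RNA was read on Affymetrix arrays with 31042 probe sets (57 control probe sets left out). The authors deposited intensity values, made with MAS5 per the submitters' processing notes (version not given in the sources used here), and no depth applies to arrays, where the 3 arrays a group limit the precision. Signals were raised to 3.12, their 20th percentile, and log2-transformed. Probe sets whose mean reached 19.74 in a group were fitted with limma 3.58.1 in R 4.3.3 (lmFit, contrasts, eBayes with trend, 24 groups, 48 residual degrees of freedom), with Benjamini-Hochberg adjustment within a comparison. A gene was represented by its tested probe set of highest mean. The labels' protocols speak of 3 independent experiments per compound.

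The members and lists were chosen with earlier results of these data known. Named genes were every called member where at most 6 were called, otherwise the 6 of largest change in each direction, where none was called the 3 of smallest p, 10 fixed genes (Mki67, Top2a, Cdk1, Ccnb1, Ccnd1, Ccne1, Mcm6, Pcna, Rrm2, Cdkn1a), and up to 3 called genes per other list and comparison. Further members were named to account for each role. D numbers paired the arrays in 14 of 16 comparisons with controls (every pair's deviations correlated above 0.1; not for aflatoxin B1), with pair correlations of -0.286 to 0.829. They paired the 2 times in the aflatoxin B1 and methapyrilene control sets, and not in the NNK and nifedipine control sets. On simulated arrays for aflatoxin B1 at 24 h (18048 probe sets), 60% of log2 changes of 1 and 92% of changes of 2 were recovered, with 14 false calls. The changes were put on randomly drawn probe sets, with noise independent between arrays and without a floor. These shares therefore need not hold for the dim mitotic genes, whose SE was larger. Alternatives were the floor, the offset, the filter, quantile normalization, the samples fitted, the replicate block, actin ratio, probe sets, and arrays left out.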

Additional observations from a re-analysis of the deposited data

How the results depend on the processing

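The numbers of members called moved as follows, and the cause was not tested unless the setting itself removes genes or arrays. Counts without a share over all genes beside them describe only how the calls moved. With the floor at the 10th percentile, aflatoxin B1 at 72 h had 1 call, nifedipine at 72 h 1, and the methapyrilene and nifedipine control sets 2 each. With log2(value + 16), aflatoxin B1 at 24 h had 2, nifedipine at 72 h 4, the NNK controls 4 and the carcinogen classes at 72 h 2. Without the filter, 2-nitrofluorene at 72 h had 1, nifedipine 4, the NNK controls 0 and the nifedipine controls 3. With the filter on the mean of all arrays, which tests 20 members, aflatoxin B1 at 72 h had 1, nifedipine 0, the mean of the controls 5, and the methapyrilene, NNK and nifedipine controls 0. Quantile normalization gave 2 for aflatoxin B1 at 24 h, 1 for nifedipine at 72 h and 0 for the NNK controls. With only the compared groups fitted, aflatoxin B1 had 0 at 24 h (0% of all genes rose) and 0 at 72 h (0.0295% rose). NNK then had 0 at 24 h (0.0393% rose) and 2-nitrofluorene 1 at each time (1.7% rose at 24 h and 0.845% fell at 72 h). In these fits nifedipine had 15 at 72 h (6.13% of all genes fell) and the classes at 72 h 0. The methapyrilene controls had 0, the NNK controls 8 (6.57% rose) and the nifedipine controls 11 (5.11% rose). With the D number as a replicate block, aflatoxin B1 had 2 at 24 h (3.41% of all genes rose) and Wy-14643 1 at 72 h (8.47% fell). Nifedipine then had 1 (Cdkn2c) at 24 h (1.16% fell) and 9 at 72 h (4.57% fell). The methapyrilene controls had 7 (2.57% rose), the NNK controls 6 (5.12%) and the nifedipine controls 10 (4.38%). No other comparison's count moved by over 1.5 times with this block. With the block within time, chosen after seeing the data, aflatoxin B1 at 24 h had 4, nifedipine 1 at 24 h and 19 at 72 h, its difference between times 3, 2-nitrofluorene at 72 h 4, Wy-14643 at 72 h 2 and the classes 2 at each time. The actin ratio as a covariate gave 2 for aflatoxin B1 at 24 h and 6 for nifedipine at 72 h. All member probe sets gave 1 for 2-nitrofluorene at 24 h. Without D number 3, aflatoxin B1 at 24 h had 2 (2.12% of all genes rose), nifedipine at 72 h 6 (4.55% fell) and the NNK controls 5 (5.04% rose). Without the arrays of high actin ratio, these had 2, 6 (5.73% fell) and 7 (6.48% rose). At 72 h aflatoxin B1 then had 1 (1.51% rose), 2-nitrofluorene 1 (0.727% fell) and Wy-14643 2 (6.99% rose). Leaving out 1 array at a time gave 1 to 2 for aflatoxin B1 at each time, 0 to 1 for NNK at each time, 0 to 2 for Wy-14643 and for nifedipine at 72 h, 13 to 24 for the mean of the controls, 0 to 14 for the methapyrilene, 0 to 3 for the NNK and 0 to 5 for the nifedipine controls. Over 198 single-gene changes, 157 settings lost and 46 gained a call, and 0 reversed direction where either fit called the gene. The other 3626 kept call and direction or were called in neither fit, where direction was not compared. Signals near the floor limit the sizes of Cdk1, Mki67 and Cdkn3.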
